A study of Mus musculus with 10 samples.

Results

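Open chromatin was followed around 8 genes of the Sox family other than Sox2 while mouse fibroblasts were reprogrammed to pluripotency. The genes were Sox4, Sox11, Sox5, Sox6, Sox9, Sox7, Sox17 and Sox15. For each gene, all ATAC-seq peaks from 100 kb before to 100 kb after it were taken from the peak lists of 10 libraries (build mm10). ATAC-seq marks open DNA by the adapters that a transposase inserts there, so it reports accessibility and not the level of a transcript. The 10 lists were merged into an atlas of 208851 regions, of which 307 overlapped the 8 windows.

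The study made 2 libraries from 50000 cells each at 5 stages, and all carry a single batch name. The starting cells (MEF) were embryonic fibroblasts of strain C57BL/6 x 129 with the genotype OKSM Col1a1/M2rtTA ROSA26, kept without doxycycline and unsorted. In this genotype a cassette of the 4 reprogramming factors sits in the Col1a1 locus and its doxycycline-dependent activator in the Rosa26 locus. The stages DAY3, DAY6 and DAY9 are the same cells after 3, 6 and 9 days in stem cell medium with 1 µg/ml doxycycline and 50 µg/ml ascorbic acid. DAY3 cells were unsorted, while DAY6 and DAY9 cells were sorted for the surface marker SSEA1, so sorting and these days cannot be told apart. The reference (ESC) was the embryonic stem cell line V6.5, which shares the strain label, has no cassette, received no doxycycline and grew on irradiated feeder cells, whose share in the ESC libraries was not measured. Stage differences that include ESC therefore cannot be told apart from differences between these lines and media. The labels do not say that the replicates came from separate cultures or animals, so p-values measure only the spread between these samples.

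SOX proteins are transcription factors with an HMG box, a domain that binds the minor groove of DNA and bends it. The family falls into groups by sequence, and members of a group often act in place of each other. Sox2, the member in the reprogramming cassette, pairs with Oct4 on DNA in pluripotent cells, and several relatives are known as drivers of neural, cartilage, endodermal or vascular fates.

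Of the 8 genes, Sox4, Sox11, Sox5, Sox6 and Sox15 matched the RefSeq promoter table of build GRCm38.p6, with 10 starts in all. The sequences below run 5′ to 3′ on the strand of the gene and are the 250 bases before the start. They are shown because they lie before starts that were open at every stage, the Sox15 start without a peak in MEF or DAY3, and the Sox6 start with peaks in MEF alone. Capitals mark matches to 7 short motifs searched on both strands, and no matches overlapped. The motifs were a KLF-type box (GGGNGTGG), the GC box (GGGCGG), the CCAAT box (CCAAT), the octamer (ATGCAAAT), a SOX-type motif (CATTGT), an AP-1-type motif (TGANTCA) and the TATA box (TATAAA).
Sox15, before chr11:69655037, plus strand: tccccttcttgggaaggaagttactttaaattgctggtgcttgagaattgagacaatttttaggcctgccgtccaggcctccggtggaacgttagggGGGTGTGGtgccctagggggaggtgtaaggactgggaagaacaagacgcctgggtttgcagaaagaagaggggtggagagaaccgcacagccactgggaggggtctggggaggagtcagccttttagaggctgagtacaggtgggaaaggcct
Sox4, before chr13:28953699, minus strand: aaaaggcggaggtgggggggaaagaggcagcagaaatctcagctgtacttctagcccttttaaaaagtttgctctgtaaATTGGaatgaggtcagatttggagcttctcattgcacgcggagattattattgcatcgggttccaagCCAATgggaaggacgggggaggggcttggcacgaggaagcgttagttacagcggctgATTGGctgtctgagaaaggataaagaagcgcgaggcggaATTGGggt
Sox11, before chr12:27342718, minus strand: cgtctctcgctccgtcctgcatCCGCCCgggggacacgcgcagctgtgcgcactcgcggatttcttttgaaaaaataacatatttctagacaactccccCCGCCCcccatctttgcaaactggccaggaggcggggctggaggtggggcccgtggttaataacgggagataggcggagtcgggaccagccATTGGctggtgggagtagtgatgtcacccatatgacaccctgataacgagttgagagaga
Sox6, before chr7:116031047, minus strand: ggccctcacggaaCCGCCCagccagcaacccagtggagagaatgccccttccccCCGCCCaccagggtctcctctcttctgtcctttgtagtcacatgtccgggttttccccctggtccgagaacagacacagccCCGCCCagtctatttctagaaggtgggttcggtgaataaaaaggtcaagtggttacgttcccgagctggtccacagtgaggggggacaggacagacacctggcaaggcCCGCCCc
Sox6, internal start before chr7:115824710, minus strand: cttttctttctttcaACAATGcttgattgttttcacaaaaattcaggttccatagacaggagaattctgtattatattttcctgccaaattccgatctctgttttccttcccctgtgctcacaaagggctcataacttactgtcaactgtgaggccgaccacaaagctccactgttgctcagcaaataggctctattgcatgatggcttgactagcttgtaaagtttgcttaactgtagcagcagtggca

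In the Sox15 sequence the capitals are a single KLF-type match that begins 153 bases before the start. Over the 21263 windows of coding genes of the same length, 17.7% held this motif. The Sox4 sequence held 4 CCAAT matches, a motif present in 35.4% of the windows. The Sox11 sequence held 2 GC boxes and 1 CCAAT box, and the Sox6 sequence before 116031047 held 4 GC boxes, with GC boxes in 42.6% of the windows. The internal Sox6 sequence held a SOX-type match, as 9.35% of the windows did. None of the 5 sequences held an octamer, an AP-1-type motif or a TATA box, which 1.58%, 6.13% and 11.6% of the windows held. A match is a run of letters and not a measured binding site. The sequences also differed in base composition. GC content was 60.8% before the Sox6 start at 116031047, 58.0% for Sox11, 55.6% for Sox15, 50.8% for Sox4 and 41.6% before the internal Sox6 start, against a median of 55.6% over the windows.

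Each region was placed in a class by its peaks. A fibroblast region had a peak in both MEF libraries and in neither ESC library, and a pluripotency region the opposite. A shared region had peaks in all 4 of these libraries. A transient region had peaks in both libraries of at least 1 intermediate stage and in none of the 4. The 8 windows held 39 fibroblast regions (12.7% of 307, against 11.1% of the atlas) and 62 pluripotency regions (20.2%, against 15.9%). They held 34 transient regions (11.1%, against 9.61%) and 20 shared regions (6.51%, against 9.2%). The other 152 regions met no class rule, and 127 of these had peaks in both libraries of no stage. With 2 libraries against 2 an exact permutation of the labels cannot pass 0.05, so these counts were not tested and are a description.

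The excess of pluripotency over fibroblast regions around the Sox genes was not kept when the lists were cut to equal length. The lists held 45497 to 88980 peaks, and the ESC lists were the longest. When every list was held to its 45497 strongest peaks, 29 fibroblast and 23 pluripotency regions were left among 182, and over the whole atlas the classes held 16667 and 16642. The counts also rested on single libraries, because a class needs 1 library fewer when 1 is left out. Without MEF replicate 2 there were 69 fibroblast regions, without ESC replicate 1 there were 94 pluripotency regions, and without ESC replicate 2 there were 99.

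**Figure D1:**
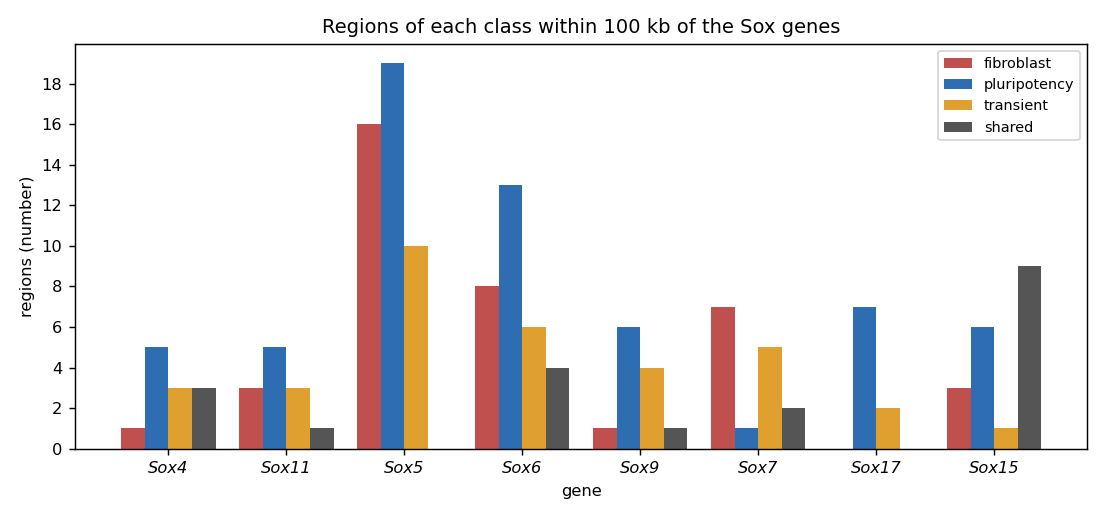
Regions in the window of each Sox gene by class, as grouped bars from 0 (y axis, number of regions), without the regions that met no class rule. Sox7 has 7 fibroblast and 1 pluripotency regions, Sox17 has 0 and 7, and the long genes Sox5 and Sox6 hold regions of both classes side by side.

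Of the 8 genes, 7 had more pluripotency than fibroblast regions and Sox7 had fewer. Among all protein-coding genes with a region in the window, 58.0% had more pluripotency and 28.4% more fibroblast regions. With lists of equal length, 2 of the 8, Sox4 and Sox17, had more pluripotency regions, against 39.1% of genes. Over the 15 settings tried, Sox4 and Sox17 had more pluripotency regions in 15 and Sox7 more fibroblast regions in 15. Sox9 was never on the fibroblast side, with 2 ties. The balance turned to the fibroblast side in 1 setting for Sox11, in 3 for Sox5, in 2 for Sox6 and in 1 for Sox15.

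The SoxC genes Sox4 and Sox11 act in progenitor cells, Sox11 above all in young neurons. Both had their start open in all 10 libraries. The region over the Sox4 start (chr13:28952196-28954128) had a fold enrichment, the authors' ratio of the peak summit to its local background, of 6.20 and 5.30 in MEF, 6.99 and 6.43 at DAY3, 6.99 and 7.62 at DAY6, 10.6 and 10.1 at DAY9, then 4.29 and 3.50 in ESC. Folds are given in the order of replicate 1 and 2 and describe peaks within a list, since the libraries differ in depth. At the Sox11 start (chr12:27341896-27343874) they ran from 4.41 in MEF replicate 2 to 7.10 in DAY9 replicate 1. A start open in all 10 libraries was the usual case, at 49.1% of 21263 coding starts.

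The whole Sox4 window held 1 fibroblast, 5 pluripotency, 3 shared and 3 transient regions, and no other protein-coding gene lies in it. Without MEF replicate 2 there were 2 fibroblast regions, and without ESC replicate 2 there were 10 pluripotency regions. The pluripotency region with the highest rank in the ESC lists lay 34.7 kb upstream (chr13:28988366-28989452). It was closed in MEF and open from DAY3 on, with folds of 8.09 and 5.90 at DAY3, 12.2 and 6.31 at DAY6, 12.3 and 9.14 at DAY9 and 7.14 and 10.4 in ESC. A region 26.5 kb upstream (chr13:28980171-28981206), picked after its values were seen, had the same order of opening, with 8.92 and 10.5 at DAY3 and 4.68 and 5.26 in ESC. All 5 Sox4 pluripotency regions were open in both libraries by DAY9: 2 first at DAY3, 1 at DAY6 and 2 at DAY9. In the atlas, 8.69%, 14.7% and 15.7% of pluripotency regions were first open at these stages in turn. The single fibroblast region, 74.6 kb downstream (chr13:28873849-28874350), had folds of 9.06 and 4.12 in MEF and 1 more peak in DAY6 replicate 1, at 3.37. A transient region 81.1 kb upstream (chr13:29034848-29035469) was open at all 3 intermediate stages, with 4.60 and 4.47 at DAY3, 8.53 and 7.82 at DAY6 and 6.12 and 6.57 at DAY9. The number of open regions in the Sox4 window was 5 and 4 in MEF, 6 and 7 at DAY3, 10 and 10 at DAY6, 12 and 13 at DAY9, and 13 and 10 in ESC. The MEF libraries were thus lowest and the DAY9 and ESC libraries overlapped. Counts of open regions, here and for the genes below, are not scaled to list length, and the DAY3 lists were the shortest and the ESC lists the longest.

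The Sox11 window held 3 fibroblast, 5 pluripotency, 1 shared and 3 transient regions, also with no other coding gene. Without MEF replicate 2 there were 5 fibroblast regions. The leading pluripotency region, 21.9 kb downstream (chr12:27311594-27312394), opened at DAY9 with folds of 4.68 and 3.58 and reached 9.84 and 4.49 in ESC. A region 12.9 kb downstream (chr12:27320431-27321342), picked after its values were seen, opened at DAY6 with 10.1 and 8.42, stood at 15.0 and 13.0 at DAY9 and at 5.13 and 8.83 in ESC. The leading fibroblast region, 43.9 kb upstream (chr12:27386574-27387094), had a peak in MEF alone, at 8.48 and 4.61. Counts of open regions were 6 and 5 in MEF, 3 and 3 at DAY3, 3 and 4 at DAY6, 11 and 9 at DAY9, and 8 and 6 in ESC. The DAY3 and DAY6 libraries were thus below MEF, and DAY9 was above every other stage.

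**Figure D2:**
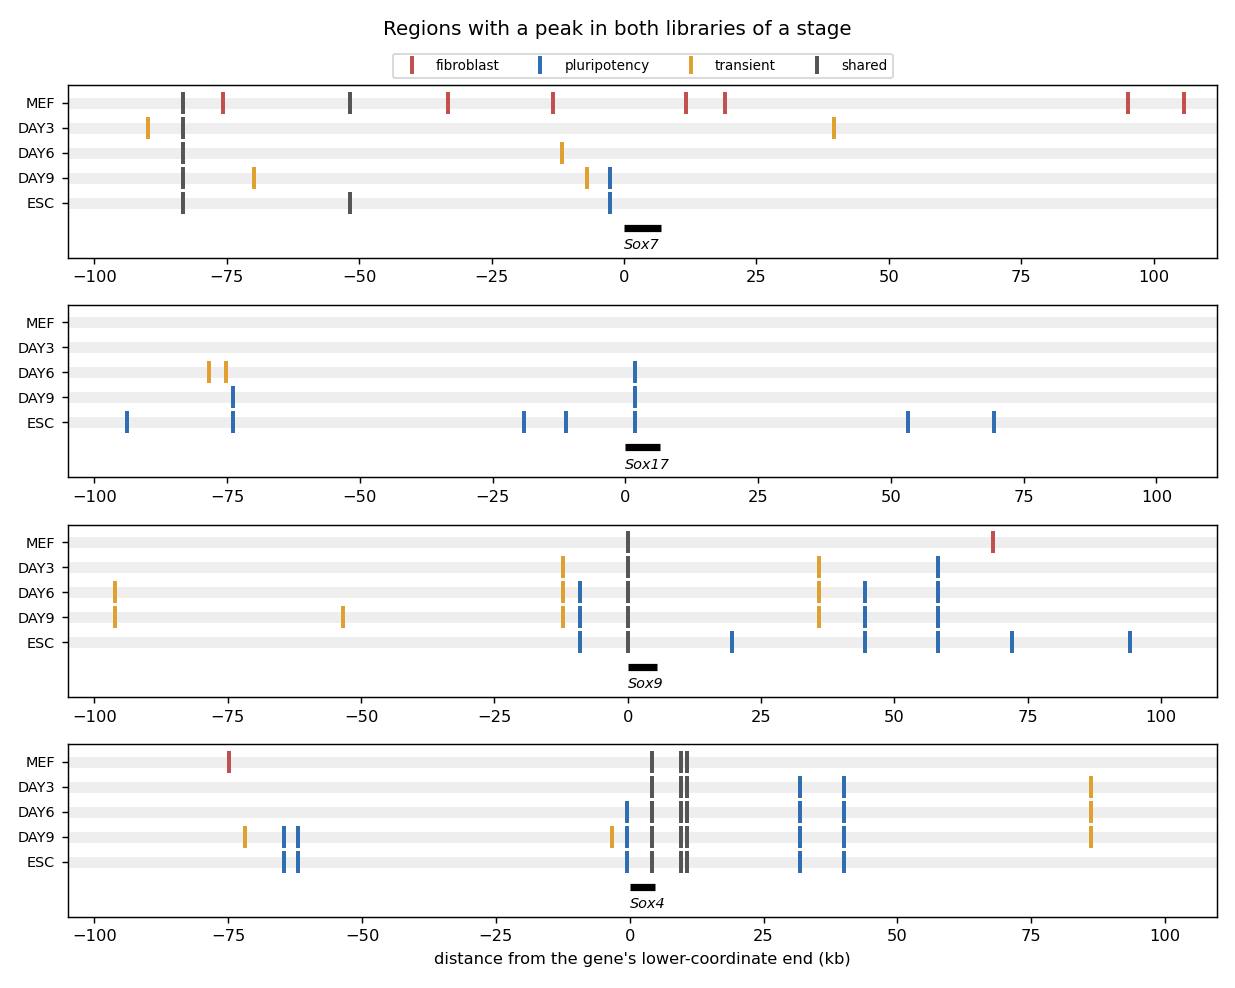
Map of the windows of Sox7, Sox17, Sox9 and Sox4, with distance from the lower end of the gene (black bar) on the x axis in kb, a row for each stage and a mark where both libraries of the stage have a peak, coloured by class. Sox7 has 7 fibroblast marks in the MEF row and Sox17 has none, and the Sox4 and Sox9 rows gain pluripotency marks from DAY3 on.

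The SoxD genes Sox5 and Sox6 encode factors that lack an activation domain and act with Sox9 in cartilage. They are long genes, and their windows of 1153.9 kb and 769.9 kb held 98 and 67 regions. Per length these were the lowest of the 8 windows, at 8.49 regions per 100 kb for Sox5 and 8.7 for Sox6. The highest was 15.9 per 100 kb, for Sox15. Most classed regions lay inside the genes, 14 of 16 fibroblast and 16 of 19 pluripotency regions for Sox5, and 7 of 8 and 9 of 13 for Sox6. The genes also fill most of their windows, 953.9 of 1153.9 kb for Sox5 and 569.9 of 769.9 kb for Sox6. Sox5 had 26 fibroblast regions without MEF replicate 1, 28 without MEF replicate 2 and 33 pluripotency regions without ESC replicate 1. Sox6 had 16 fibroblast regions without MEF replicate 2 and 21 pluripotency regions when either ESC library was left out.

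Fibroblast, pluripotency and transient regions lay side by side inside Sox5. The leading fibroblast region (chr6:144074644-144075590) had folds of 15.7 and 8.87 in MEF, a last peak of 4.60 in DAY3 replicate 1 and none after it. The leading pluripotency region (chr6:144360995-144361984) had 14.8 and 14.3 in ESC and no peak in any other library. The leading transient region (chr6:144154783-144155542) had 8.43 and 8.26 at DAY3, 12.8 and 10.3 at DAY6 and 5.64 and 5.25 at DAY9, between closed MEF and closed ESC libraries. Of 16 fibroblast regions 14 had no peak at any intermediate stage (87.5%, against 74.7% of those of the atlas). An exception picked after its values were seen (chr6:144165919-144166919) had 7.60 and 4.40 in MEF, peaks in all 6 intermediate libraries between 5.25 and 10.2, and none in ESC. Of 19 pluripotency regions 11 were open in both libraries only in ESC (57.9%, against 60.9% of those of the atlas). Open regions in the window were 31 and 27 in MEF, 17 and 16 at DAY3, 20 and 18 at DAY6, 23 and 25 at DAY9, and 29 and 37 in ESC. In these unscaled counts MEF and ESC were high and overlapped, and DAY3 was lowest. The DAY3 lists were also the shortest, with 45766 and 45497 peaks. The upper end of Sox5, which is the 5′ end of this minus-strand gene, lay in a region with peaks in 9 of 10 libraries (chr6:144781315-144783168). Its fold was 4.53 in MEF replicate 1, with no peak in MEF replicate 2, and lay between 4.30 and 8.53 in the 8 later libraries. The only Sox5 start in the promoter table, at chr6:143947106, is an internal one and lay in no region, as did 34.1% of coding starts.

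Classes were not spread evenly along Sox5. Counted from the lower coordinate in 4 equal parts of 238.5 kb, an analysis chosen after the map was seen, the gene held 3, 4, 0 and 7 fibroblast, 4, 5, 5 and 2 pluripotency and 1, 7, 1 and 1 transient regions. In Sox6, in parts of 142.5 kb, these were 1, 2, 2 and 2 fibroblast, 5, 0, 4 and 0 pluripotency and 2, 2, 1 and 0 transient regions. These counts are small and have no test.

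**Figure D3:**
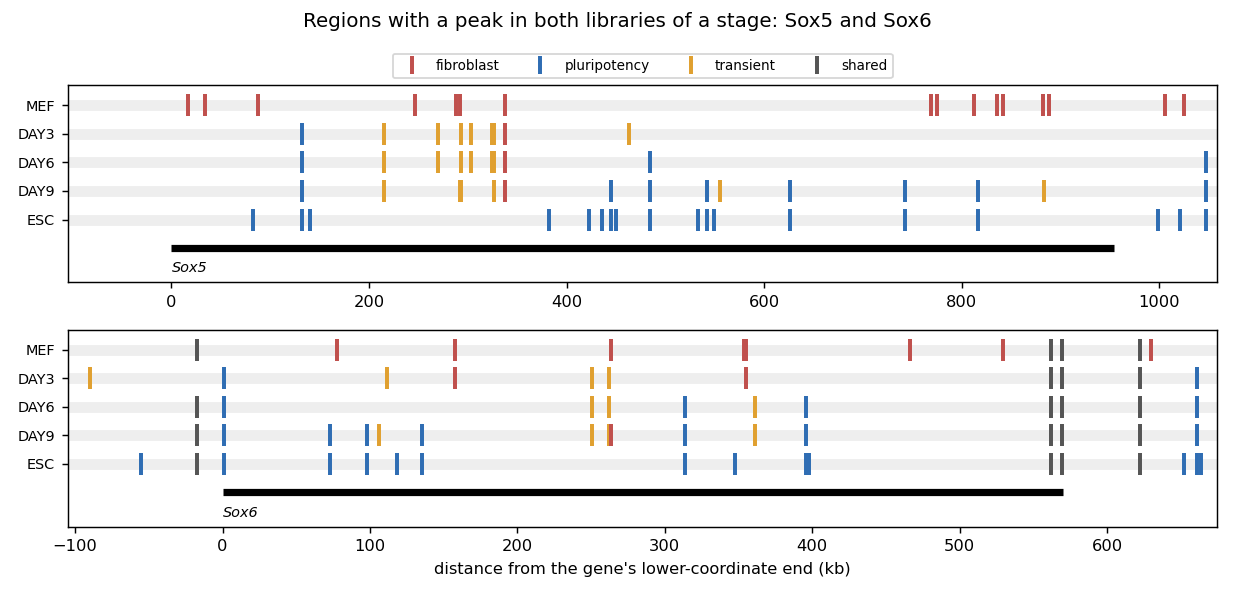
Map of the windows of Sox5 and Sox6, with distance from the lower end of the gene (black bar) on the x axis in kb, a row for each stage and a mark where both libraries of the stage have a peak, coloured by class. The part of Sox5 with the highest coordinates holds 7 fibroblast and 2 pluripotency regions, and the part before it 0 and 5.

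Of the Sox6 starts, 1 stayed open and 1 was open in MEF alone. The region over the start at 116031047 (chr7:116030921-116034835) was open in all 10 libraries, with folds from 3.06 in DAY6 replicate 1 to 5.40 in DAY3 replicate 1. The region over the internal start at 115824710 (chr7:115824524-115825064) was open in MEF alone, at 4.53 and 2.79. These peaks ranked low, at score percentiles of 32.9 and 17.3 in the MEF lists. Starts in fibroblast regions were 1.08% of coding starts. The next fibroblast region (chr7:115825199-115826340), picked because it lies 489 bases from this internal start, had peaks at DAY3 too. Its folds were 3.62 and 4.29 in MEF and 3.33 and 3.83 at DAY3. The other 4 listed Sox6 starts lay in no region. The leading pluripotency region inside Sox6 (chr7:115605712-115606902) had a peak of 4.04 in DAY6 replicate 1, then 16.2 and 15.6 at DAY9 and 8.92 and 11.9 in ESC. The leading transient region (chr7:115732680-115733420) had 9.14 and 9.97 at DAY3, 17.7 and 11.9 at DAY6 and 15.6 and 17.9 at DAY9 and no peak in MEF or ESC. The leading fibroblast region, 59.3 kb upstream (chr7:116100055-116100682), had folds of 19.0 and 4.72 in MEF. It overlaps 1110004F10Rik, which with Plekha7 also lies in the window, so this region cannot be assigned to Sox6. Open regions were 21 and 12 in MEF, 14 and 15 at DAY3, 20 and 19 at DAY6, 23 and 30 at DAY9, and 26 and 25 in ESC, and the MEF replicates alone spanned the DAY3 and DAY6 values.

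Sox9, the only SoxE gene among the 8, encodes the main regulator of cartilage and of testis determination. Its ends are given here by coordinate. The region over its lower end (chr11:112781262-112783189) was open in all 10 libraries, with folds from 4.74 in ESC replicate 2 to 7.09 in DAY9 replicate 1. Of its 23 regions 1 was fibroblast, 6 pluripotency, 1 shared and 4 transient, and no other coding gene lies in the window. The leading pluripotency region, 51.9 kb past the gene (chr11:112839661-112841009), opened at DAY3 with 5.33 and 4.47 and had 8.63 and 8.11 at DAY6, 7.35 and 7.39 at DAY9 and 7.19 and 5.51 in ESC. The leading transient region, 30.0 kb past the gene (chr11:112817719-112818559), had 6.82 and 7.32 at DAY3, 10.2 and 7.82 at DAY6 and 12.5 and 12.7 at DAY9. Of the 4 transient Sox9 regions, 2 were open at all 3 intermediate stages, as were 17.5% of the transient regions of the atlas. The fibroblast region, 62.6 kb past the gene (chr11:112850373-112851152), had 9.53 and 4.61 in MEF alone. Without MEF replicate 1 there were 3 fibroblast regions and without MEF replicate 2 there were 2. Open regions were 5 and 4 in MEF, 6 and 6 at DAY3, 9 and 9 at DAY6, 10 and 11 at DAY9, and 12 and 12 in ESC. In these unscaled counts no stage overlapped another. The lists also grew from DAY3 to ESC, with 45766 and 45497 peaks at DAY3 and 86585 and 88980 in ESC. Of 4 cartilage markers, 0 had a peak within 1 kb of a gene end in both libraries of MEF, DAY3 or DAY6, 2 had one at DAY9 and 1 in ESC, and Col9a1 and Matn1 had none in any library. The part of such cells in the Sox9 values was not tested.

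The SoxF genes among the 8, Sox7 and Sox17, both act in endoderm and in blood vessels, and their windows held opposite classes. Sox7 had 7 fibroblast and 1 pluripotency regions, and Sox17 had 0 and 7. Among protein-coding genes, 1.2% had at least 7 fibroblast and at most 1 pluripotency regions and 2.12% had at least 7 pluripotency and no fibroblast regions, thresholds set from these 2 genes after their values were seen. Single libraries moved these counts: Sox7 had 11 fibroblast regions without MEF replicate 2, 2 pluripotency regions without MEF replicate 1 and 4 without ESC replicate 2. Sox17 had 1 fibroblast region when either MEF library was left out. All 7 Sox7 fibroblast regions were absent from both DAY3 libraries, as were 79.4% of those of the atlas. Of the 7, 1 had a later peak, in DAY6 replicate 2. The leading one, 11.7 kb past the gene (chr14:63962441-63963157), had folds of 12.5 and 7.29 in MEF alone. The pluripotency region of Sox7, 2.3 kb before the gene (chr14:63940749-63941388), was weak, with 2.77 and 3.07 at DAY9 and 3.29 and 2.89 in ESC. The leading transient region, 69.3 kb before the gene (chr14:63873490-63874368), had 6.65 in DAY6 replicate 2 and 11.1 and 11.8 at DAY9, and it overlaps the neighbouring gene Pinx1. The region over the lower gene end (chr14:63943151-63944173) met no class rule, with 4.11 in MEF replicate 1, none at DAY3, 6.11 in DAY6 replicate 2, 4.98 and 4.44 at DAY9 and 3.83 and 3.38 in ESC. Open regions around Sox7 were 14 and 10 in MEF and 4 to 7 in the other 8 libraries, with no overlap. Xkr6, Pinx1, 4930578I06Rik and Rp1l1 also lie in this window. The fibroblast regions at chr14:63867775-63868291 and chr14:63910244-63910735 overlap Pinx1, so they cannot be assigned to Sox7.

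At Sox17 neither gene end lay in a region, while a region inside the gene (chr1:4491658-4493937), picked after its values were seen, opened at DAY6. Its folds were 4.36 and 3.55 at DAY6, 3.22 and 3.78 at DAY9 and 5.56 and 4.41 in ESC. The leading pluripotency region, 62.2 kb past the gene (chr1:4559622-4561190), had peaks in ESC alone, at 8.35 and 8.53. Of the 7 pluripotency regions 5 were open in both libraries only in ESC (71.4%, against 60.9% of those of the atlas). The leading transient region, 78.1 kb before the gene (chr1:4412401-4412812), had 5.53 and 4.33 at DAY6 alone. Open regions were 2 and 1 in MEF, 1 and 1 at DAY3, 5 and 4 at DAY6, 6 and 4 at DAY9, and 9 and 11 in ESC. In these unscaled counts ESC stood above every other library, and the ESC lists were the longest. Rp1 also lies in this window. Extraembryonic endoderm, another cell type that uses Sox7 and Sox17, was checked by 6 markers: 1 had a peak near a gene end in both libraries of MEF, DAY3 and DAY6 and 2 at DAY9 and ESC, and Gata4, Dab2 and Hnf4a had none in any library. Of 5 endothelial markers, 0 had such a peak in both MEF libraries and 3 at every later stage, and Pecam1 had none in any library. The part of endothelial cells in the SoxF values was not tested.

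Sox15, the only mammalian SoxG gene, is expressed in embryonic stem cells and in muscle precursors. Its start, the sequence printed first above, lay in a pluripotency region (chr11:69654452-69655256). There was no peak in MEF or DAY3, and the folds were 4.00 in DAY6 replicate 2, 6.22 and 5.69 at DAY9 and 6.58 and 4.18 in ESC. The score percentiles in the ESC lists were 72.1 and 48.1. With equal list lengths the Sox15 window had 1 pluripotency region, against 6 in the full lists. Starts in pluripotency regions were 3.92% of coding starts. A further region inside the gene (chr11:69655301-69655763), picked because it adjoins the start, had 3.21 and 3.37 at DAY9 and 3.52 and 2.76 in ESC alone. The rest of the window is crowded, with 15 other coding genes, among them Trp53 and Polr2a, and 9 shared regions, the most of the 8 windows. Its 6 pluripotency regions became 14 without ESC replicate 2. The leading pluripotency region, 9.1 kb downstream (chr11:69665783-69666754), had 2.29 and 3.30 at DAY3, none at DAY6, 2.69 and 2.79 at DAY9 and 7.68 and 4.50 in ESC, and it overlaps Cd68. The leading fibroblast region, 58.8 kb downstream (chr11:69715565-69716306), had 10.2 and 3.86 in MEF alone. The single transient region (chr11:69557303-69557909) had 3.12 and 3.53 at DAY9 and overlaps Efnb3. Open regions were 14 and 12 in MEF, 13 and 14 at DAY3, 16 and 13 at DAY6, 21 and 21 at DAY9, and 24 and 18 in ESC. In these unscaled counts DAY9 and ESC overlapped and stood above the earlier stages. Their lists were also the longest, with 77787 and 78308 peaks at DAY9 and 86585 and 88980 in ESC, against 45766 and 45497 at DAY3.

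**Figure D4:**
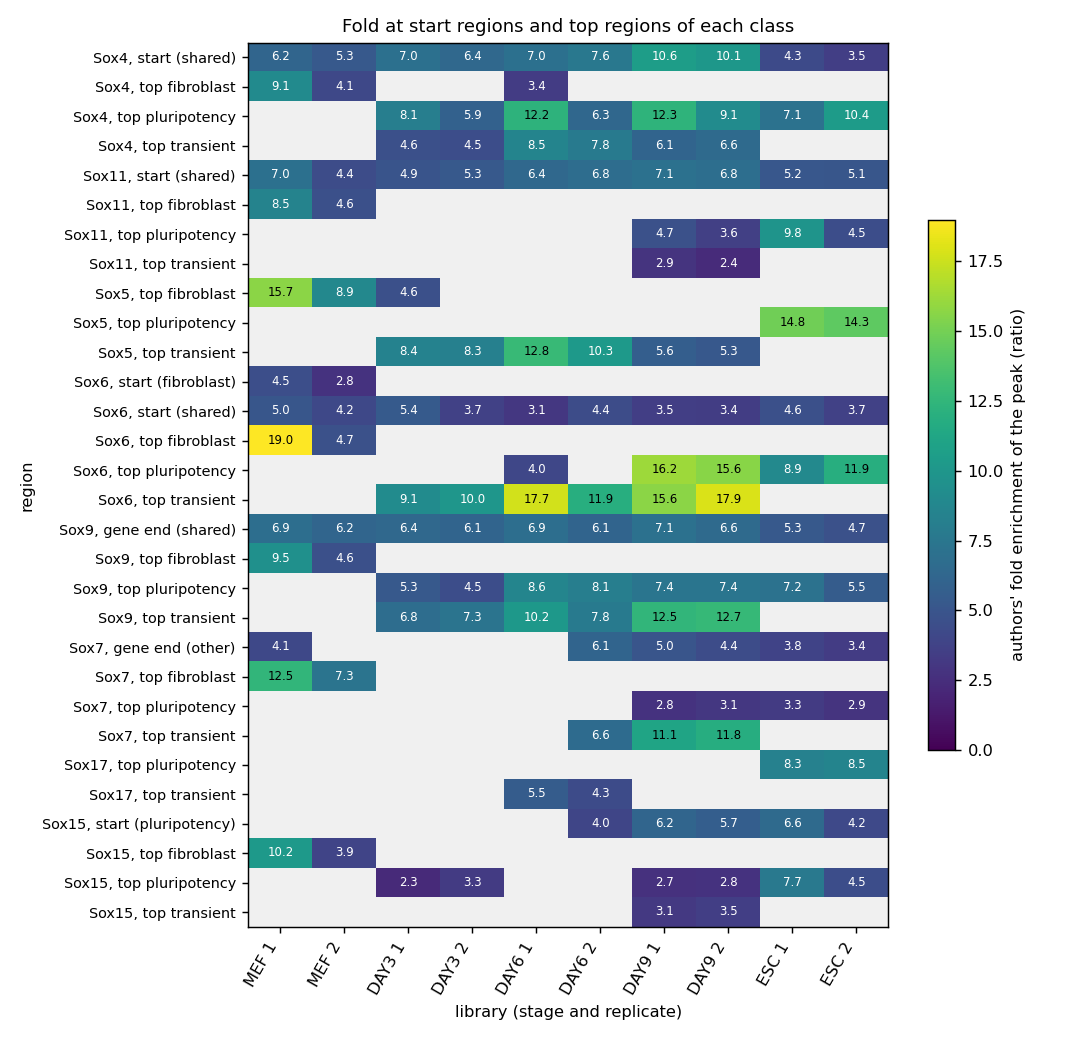
Fold enrichment (the authors' ratio of summit to local background) of each named region in the 10 libraries, with a grey cell where the library has no peak. The starts of Sox4 and Sox11 are filled in every library, and the Sox15 start is filled in 5 libraries from DAY6 replicate 2 on.

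Pluripotency regions around the Sox genes opened stepwise. In both libraries, 8 of 62 were first open at DAY3 (12.9%, against 8.69% of all pluripotency regions of the atlas), 9 at DAY6 (14.5%, against 14.7%), 15 at DAY9 (24.2%, against 15.7%) and 30 in ESC (48.4%, against 60.9%). Of the 62, 23 had no peak in any DAY3, DAY6 or DAY9 library (37.1%, against 49.6%). Per library, 14.5% and 16.1% of the 62 had a peak at DAY3, 33.9% and 30.6% at DAY6 and 53.2% and 59.7% at DAY9. The atlas values were 11.3% and 11.3% at DAY3, 30.4% and 27.8% at DAY6 and 42.6% and 42.8% at DAY9. Few fibroblast regions had a peak at DAY3: 34 of 39 (87.2%, against 79.4%) were absent from both DAY3 libraries. At all intermediate stages, 29 of 39 (74.4%, against 74.7%) had no peak. In replicates 1 and 2, 5 and 4 of the 39 had a peak at DAY3, and again 5 and 4 at DAY6 and at DAY9. Absence is the lack of a called peak, and the DAY3 lists were the shortest, so weak regions can be missed there. Of 34 transient regions, 17 were open in both libraries at DAY3 (50.0%, against 34.9%), 16 at DAY6 (47.1%, against 44.0%) and 22 at DAY9 (64.7%, against 80.2%), and 8 at all 3 stages (23.5%, against 17.5%). Regions near 1 gene are not independent, and these shares have no test. Each of the DAY3 and DAY9 pairs may be 1 library, since its replicates differed by little more than counting noise, so a peak in both libraries is easier to reach at these stages than at DAY6 or in ESC, in the 8 windows and the atlas alike. The 2 classes were alike in strength within their lists, with a median score percentile of 55.1 in MEF for fibroblast and 53.8 in ESC for pluripotency regions, against 55.9 and 56.9 in the atlas.

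The number of open regions per window, not scaled to list length, was compared over the 5 stages. The test was an exact permutation test of the between-stage share of the sum of squares. The DAY3 pair and the DAY9 pair differed by little more than counting noise and were each counted as 1 sample, which left 8 samples and 420 arrangements. None of the 8 genes passed after Benjamini-Hochberg adjustment over 21542 protein-coding genes. In all, 0.0% of genes passed, and the smallest adjusted p of any gene in this exact permutation test was 0.206. At an unadjusted p under 0.05, 3 of the 8 passed, Sox9, Sox17 and Sox4, against 19.7% of all genes. In Sox9 99.3% of the variation lay between stages (exact permutation p = 0.00476, adjusted p = 0.206). In Sox17 it was 96.8% (exact permutation p = 0.0238, adjusted p = 0.225) and in Sox4 93.6% (exact permutation p = 0.0429, adjusted p = 0.233). The remaining 5 genes had between-stage shares of 79.0% (Sox6) to 92.8% (Sox11). With the 10 libraries counted separately, Sox11, Sox5, Sox9 and Sox17 passed after adjustment, as did 19.2% of all genes.

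**Figure D5:**
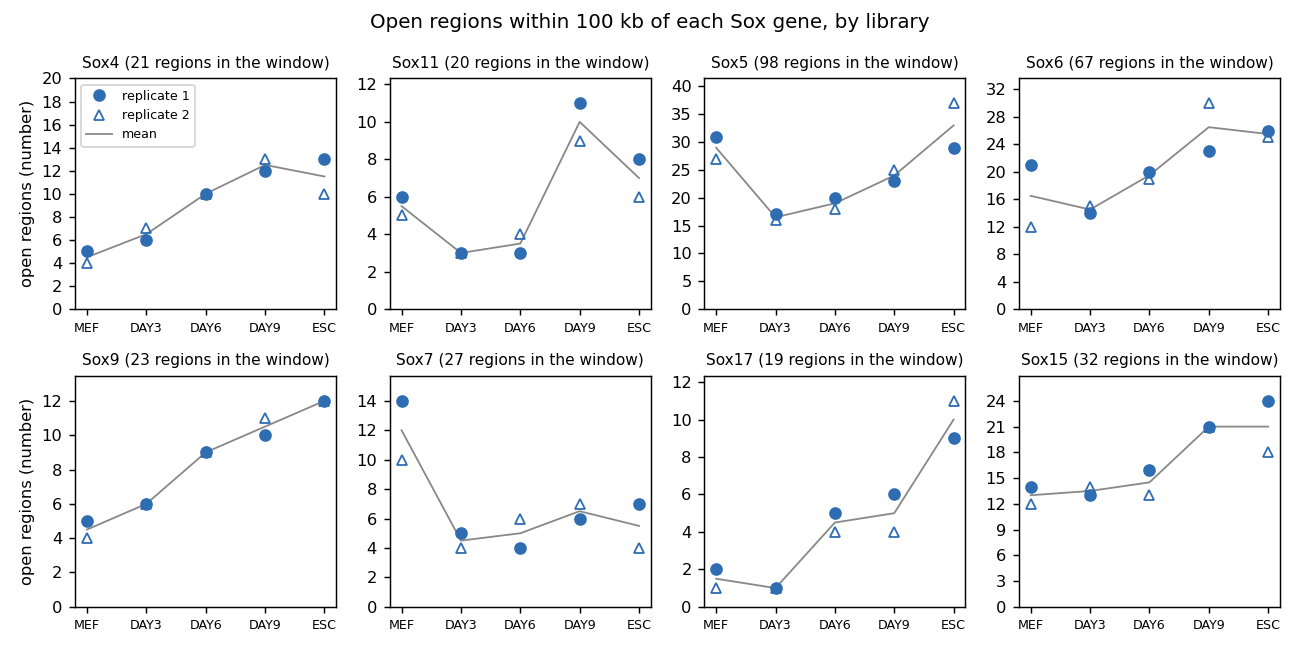
Number of open regions in the window of each Sox gene (y axis, from 0) by stage (x axis), with a filled point for replicate 1, an open one for replicate 2 and a line through the means. Sox9 runs from 4 and 5 in MEF to 12 in both ESC libraries, and Sox7 has 14 and 10 in MEF and 5 and 4 at DAY3. The counts are not scaled to list length.

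The stage labels were checked at gene ends, within 1 kb. Of 8 pluripotent markers, 1, 1, 4, 6 and 7 had a peak in both libraries of MEF, DAY3, DAY6, DAY9 and ESC in turn. Of 8 fibroblast markers, 6, 3, 2, 3 and 3 had one. Col3a1 and Postn had peaks in MEF alone, while Col1a1 and Col1a2 were open in all 10 libraries. Prrx1 went the other way: it lacked a peak in MEF replicate 2 and was open in each DAY9 and each ESC library. Of 5 neural markers, 2, 2, 3, 4 and 5 had a peak in both replicates, with stages in the same order. The part of neural cells in the Sox11 values was not tested. For comparison within the family, the windows of 10 other Sox genes (Sox1, Sox3, Sox8, Sox10, Sox12, Sox13, Sox14, Sox18, Sox21 and Sox30) held 16 fibroblast (6.45%), 36 pluripotency (14.5%), 38 shared (15.3%) and 23 transient (9.27%) of 248 regions. Single windows differed. Fibroblast and pluripotency regions were 3 and 0 for Sox8, 0 and 0 for Sox10, 2 and 5 for Sox13, 1 and 4 for Sox18 and 1 and 9 for Sox1.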

How the data were processed

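ATAC-seq peak lists of 10 libraries, 2 at each of 5 stages, were analysed. The authors deposited 1 list per library in the 10-column narrowPeak layout without a header. The deposited score is 10 times the −log10 p-value, rounded down, in nearly all peaks. The deposited fold is a linear ratio of the peak summit to its local background, and the deposited p- and q-values are on the −log10 scale. Bowtie2 2.3.2, deepTools 2.3.6, MACS2 2.1.1 and mm10 are named in the submitters' processing notes, without roles or order. Handling of duplicates, the transposase offset and filters are not given in the sources used here. The lists hold no read totals, so depth is unknown. The background pileup recovered from fold and p ran from 2.327 (DAY6 replicate 2) to 8.322 (MEF replicate 2), and weak regions can be missed in shallower libraries.

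The lists were merged where peaks overlapped by at least 1 bp, so neighbouring peaks of different stages can join into 1 region counted as shared. Gene positions and promoters came from RefSeq (GRCm38.p6, the assembly of mm10). A first open stage is the first with peaks in both libraries. Recovered summit pileups of 100 to 200 gave ratios of replicate difference to counting noise of 5.56 in MEF, 1.33 in DAY3, 3.61 in DAY6, 1.42 in DAY9 and 8.11 in ESC, so the DAY3 and DAY9 pairs were averaged. The smallest p the exact permutation test can give is 0.00238. The test was also run on simulated counts, drawn independently for each library and without differences in list length. That run cannot check the test under the replicate spread and list lengths of these data. Named regions are those at a start or gene end and the fibroblast, pluripotency and transient region with the highest mean score percentile in its own stage, and others are said to be picked after their values were seen. The 8 genes, the marker lists and the tests were chosen with earlier results of these data known. Alternatives were equal list lengths, the top 50% of peaks, 50 kb windows, 50% coverage, each library left out, 10 separate libraries, a replicate block and counts per 10000 peaks. Python 3.11.15, pandas 2.3.3, numpy 2.4.6, scipy 1.17.1 and matplotlib 3.10.9 were used.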

Additional observations from a re-analysis of the deposited data

How the results depend on the processing

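Fibroblast regions around the 8 genes numbered 39 in the full lists, pluripotency regions 62 and transient regions 34. With equal list lengths pluripotency regions fell to 23, and with the top 50% of each list the classes held 17, 24 and 18 regions; both settings keep fewer peaks. Leaving out 1 library gave 39 to 69 fibroblast, 62 to 99 pluripotency and 35 to 44 transient regions and 0 to 0 genes past the adjusted threshold. Counting 10 separate libraries gave 4 genes. Pluripotency minus fibroblast regions turned to −2 for Sox11, −4 for Sox5, −1 for Sox6 and −1 for Sox15 with equal list lengths. Without MEF replicate 1 it was −5 for Sox5, and without MEF replicate 2 it was −8 for Sox5 and −3 for Sox6, within ranges of −8 to 17 and −3 to 13 over all libraries left out. A class needs 1 library fewer when 1 is left out, so these counts can rise by construction. Windows of 50 kb and 50% coverage turned no direction. Deviations of same-numbered libraries had correlations of −0.0095 to 0.0221 between stages. The DAY3 and DAY9 pairs may each be 1 library, so these values cannot exclude a pairing by number. The replicate block gave 0 genes past the adjusted threshold. Unequal depth, 2 libraries per stage and unstated duplicate handling limit all counts.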
